A study of Mus musculus with 9 samples.

Results

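The 10 genes described here encode transcription factors of the AP-1 complex and of the immediate early response, which cells mount quickly after a stimulus: Fos, Fosb, Fosl1 and Fosl2 of the Fos family, Jun, Junb and Jund of the Jun family, and Atf3, Egr1 and Ier2. They were taken by gene symbol from the expression files of 9 mouse colon samples. All 10 were found, each listed once, among 21498 symbols, and all 10 passed the filter on low values. The samples formed 3 groups of 3 biological replicates from male mice of the outbred ICR strain, which entered the experiment at 5 weeks of age and were killed at the end of week 18. Control mice had neither carcinogen, colitis nor antibody, and their samples are labelled normal colorectal mucosa. The mice of both other groups received 1 intraperitoneal injection of 10 mg/kg azoxymethane (AOM), a colon carcinogen. From a week later they drank dextran sulfate sodium (DSS), which injures the colon lining, in 3 cycles, at 2% for 7 days and then at 1.5% for 5 days in each later cycle. During these cycles the IgG group was injected intravenously, every other day, with 1.5 mg/kg of a negative control antibody, and the anti-A9 group with the same dose of an antibody against S100a9, a calcium-binding protein that neutrophils and other myeloid cells carry in large amounts. Both AOM/DSS groups are labelled colorectal adenocarcinoma, whereas the study's text calls the anti-A9 tissue colon mucosa. AOM/DSS without any antibody was not analysed here, so IgG against Control compares AOM/DSS and the IgG antibody together with neither.

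AP-1 is a pair of leucine zipper proteins, a Jun protein with a second Jun protein or with a Fos or Atf family partner, which binds short DNA sites in the regulatory regions of genes for growth, matrix breakdown and inflammation. Jun proteins can pair with each other, whereas Fos proteins need a partner from another family. Growth factors, cytokines and stress act through MAP kinases on factors already present in the cell, which start transcription of Fos, Jun, Egr1 and Ier2 before any new protein is made, while Fosl1 usually follows later. In the colon these genes are known for their response to mucosal injury and for their part in intestinal tumors.

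Values are in FPKM, fragments scaled by transcript length and by sequencing depth, a scale meant for setting levels of different genes side by side. Here the housekeeping genes Gapdh, Ppia and Rps18 reached at most 0.755, 0.974 and 0.391 FPKM, so some genes may be listed too low. Ranks, sums and shares across genes therefore describe the listed values only. As the depth is not known in fragments, no counting error is given. The 9 samples summed to between 308377 and 408811 FPKM. Epithelial markers (8 genes) were above 0 in every sample and summed to between 3073 and 5275 FPKM, and smooth muscle markers (6 genes) summed to between 518 and 4074 FPKM, the lowest and second lowest in IgG replicates 1 and 2. S100a9 itself was at 0.371, 0.859 and 0.575 FPKM in the Control replicates 1 to 3, at 63.1, 173 and 267 FPKM in IgG and at 10.3, 11.6 and 5.54 FPKM in anti-A9. In whole tissue, fewer cells of a type and less RNA per cell cannot be told apart. The labels call the samples biological replicates, and whether mice of different groups shared a cage, a litter or a day of preparation is not given in the sources used here.

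Promoters of 7 of the 10 genes were matched by symbol in RefSeq (GRCm38.p6). Fosl1, Egr1 and Ier2 were not matched. The stretches below, of 150 bases from 120 before the start of the gene on, are shown for Fos, Jun and Junb because a search for 7 short motifs, on both strands of 250 bases before to 50 after the start, found in them the core of a TATA box or a site for Jun and Atf proteins, which is in capitals. In Fos and Junb the match is TATAAA, the TATA box core, and in Jun it is TGACATCA, a variant of the Jun and Atf site TGACGTCA. The coordinates are chr12:85473770-85473919 on the plus strand for Fos, chr4:95052193-95052342 on the minus strand for Jun and chr8:84978719-84978868 on the minus strand for Junb.
Fos: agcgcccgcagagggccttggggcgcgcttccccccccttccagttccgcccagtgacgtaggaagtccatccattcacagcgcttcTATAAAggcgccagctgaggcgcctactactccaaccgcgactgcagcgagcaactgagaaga
Jun: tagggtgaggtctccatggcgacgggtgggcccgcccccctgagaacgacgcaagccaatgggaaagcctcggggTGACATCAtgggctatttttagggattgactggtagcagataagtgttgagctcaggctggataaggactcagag
Junb: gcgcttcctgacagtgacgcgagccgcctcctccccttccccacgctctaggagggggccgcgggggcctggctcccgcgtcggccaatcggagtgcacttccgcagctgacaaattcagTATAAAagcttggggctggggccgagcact
The TATAAA of Fos covers bases -33 to -28 from the start, and that of Junb begins at the RefSeq start itself, which lies upstream of the start that GENCODE gives. The TGACATCA of Jun covers bases -45 to -38. Among all 32851 promoters of the table, 13.6% held TATAAA and 3.62% held TGACATCA. Of the other motifs, GCGNGGGCG, which Egr proteins bind, was found in Fosb and Fosl2 and in 5.55% of all promoters. No match overlapped another. The AP-1 site TGANTCA (7.81% of all promoters), the site TGACGTCA (1.79%), the CArG box of serum response factor (1.63%) and the STAT-type site TTCNNNGAA (8.3%) had no match in the 7 windows, which says only that these letters are not in them. The window of Jund, chr8:70697489-70697788 on the plus strand, ends before the gene's start in GENCODE (70698949) and does not include it.

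Among the 10 genes, Fosl1 was the one whose level set the IgG group apart from both others. It rose with AOM/DSS and IgG by a log2 fold change of 3.54 and was lower with anti-A9 by 2.84 on the same scale. Junb, with Jund the most abundant of the 10 in the IgG samples, was also lower with anti-A9 than with IgG, by a log2 fold change of -1.18, but this difference was smaller after a correction for GC content and transcript length. Between anti-A9 and Control, Fosl1 differed by 0.70 and Junb by -0.53 on this scale. Fold changes are on the log2(FPKM + 0.1) scale, which understates changes of weakly expressed genes, and adjusted p-values are Benjamini-Hochberg values over 15278 genes from limma.

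**Figure D1:**
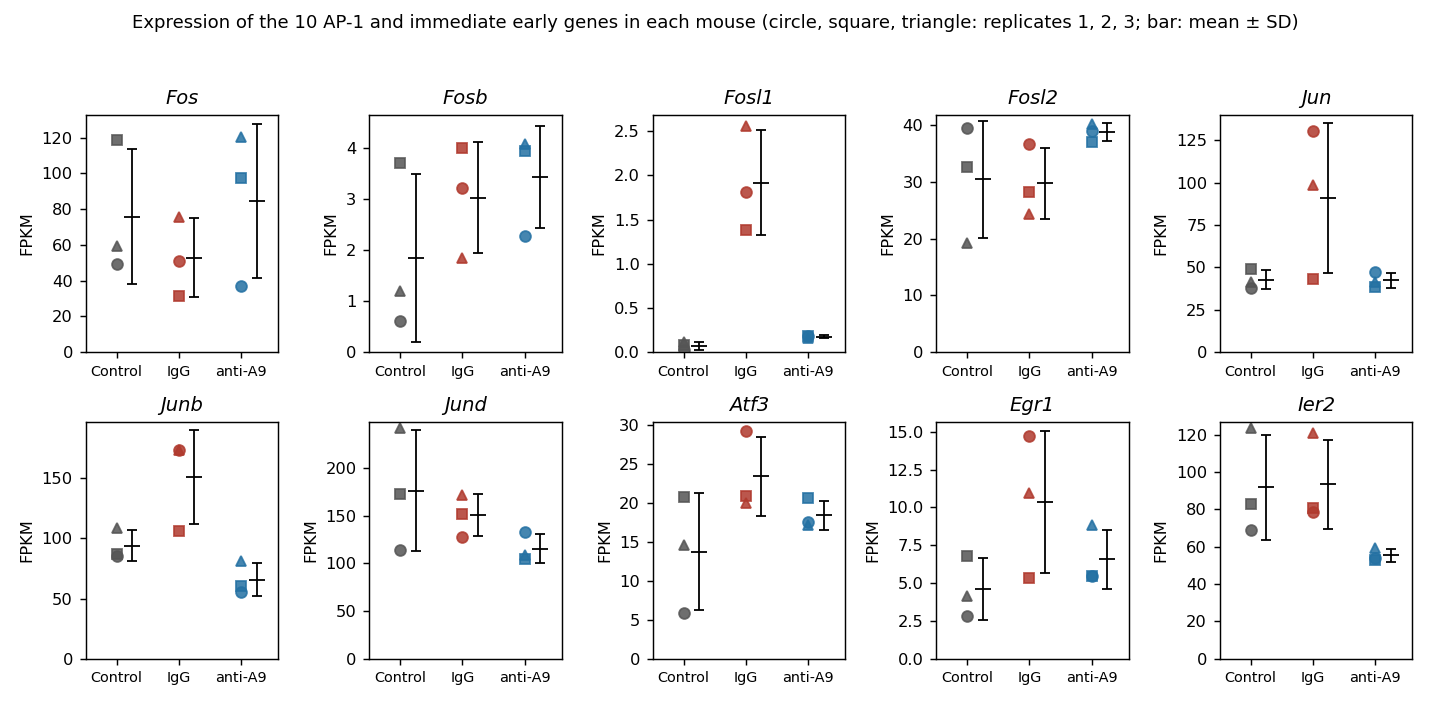
FPKM (linear vertical axes from 0, 1 panel per gene) in each of the 9 mice by group, with circles, squares and triangles for replicates 1, 2 and 3 and the mean ± SD beside them. Fosl1 at 1.38 to 2.56 FPKM in IgG lies clear of both other groups, Junb and Ier2 are lowest in anti-A9, and Fos, Fosb, Atf3 and Egr1 overlap between all 3 groups.

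Fos, which encodes the founding partner of Jun in AP-1, lies at chr12:85473890-85477273 (GENCODE M21, GRCm38, plus strand). It was at 49.1, 119 and 59.1 FPKM in Control replicates 1, 2 and 3, at 51.0, 31.5 and 75.8 in IgG and at 36.7, 97.1 and 120.3 in anti-A9. Samples of each group lay on both sides of samples of the others, with anti-A9 the most spread. The log2 fold change was -0.50 between IgG and Control (SE 0.51, adjusted p = 0.549) and 0.61 between anti-A9 and IgG (95% confidence interval -0.56 to 1.77, adjusted p = 0.400). Fosb, a close relative whose short splice form builds up under repeated stimulation, was much less abundant. It was at 0.616, 3.70 and 1.19 FPKM in Control, at 3.22, 4.002 and 1.85 in IgG and at 2.27, 3.93 and 4.08 in anti-A9, again with overlap between all groups. Control replicate 2 had the highest Fos and the highest Fosb of its group.

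Fosl1 (chr19:5447547-5455946, plus strand) encodes Fra-1, a Fos protein without the transactivation domain of Fos that is known from invasive and wound-edge epithelium. It was at 0.0227, 0.0837 and 0.111 FPKM in Control, at 1.81, 1.38 and 2.56 FPKM in IgG and at 0.182, 0.184 and 0.157 FPKM in anti-A9. Every IgG sample lay above every Control and every anti-A9 sample, and every anti-A9 sample lay above every Control sample. The rise from Control to IgG was 3.54 on the log2 scale (SE 0.32, adjusted p = 0.000694) and the difference between anti-A9 and IgG one of -2.84 (SE 0.32, adjusted p = 0.00282). Both passed the adjusted threshold in all 9 fits that left out 1 sample, with log2 fold changes of 3.31 to 3.74 and of -3.04 to -2.62. The size of the fold depends on the pseudocount, as Control and anti-A9 levels lie near it. Over the alternatives tried it ran from 1.42 to 4.70 between IgG and Control and from -3.34 to -1.29 between anti-A9 and IgG. Fosl1 is on the study's own list of Wnt pathway genes chosen from these samples for this pattern, so its direction is not independent evidence.

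Fosl2 encodes Fra-2, and with Fos it made up most of the Fos family transcript. It was at 39.5, 32.6 and 19.3 FPKM in Control, at 36.7, 28.3 and 24.3 in IgG and at 39.1, 37.1 and 40.3 in anti-A9. The anti-A9 samples lay above all IgG samples and close together, whereas Control and IgG overlapped. The log2 fold change between anti-A9 and IgG was 0.40 (SE 0.26, adjusted p = 0.271), and that between IgG and Control was 0.01 (95% confidence interval -0.58 to 0.59).

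Jun (chr4:95049034-95052222, minus strand) and Junb (chr8:84974484-84978718, minus strand) are genes of a single exon. Jun, whose protein drives growth when phosphorylated by JNK, was at 37.8, 48.9 and 41.2 FPKM in Control, at 131, 43.4 and 98.9 in IgG and at 47.2, 38.4 and 41.6 in anti-A9. IgG replicates 1 and 3 lay above every other sample, whereas IgG replicate 2 lay within the range of Control and anti-A9. The log2 fold changes of 0.96 between IgG and Control (SE 0.35, adjusted p = 0.107) and -0.96 between anti-A9 and IgG (SE 0.35, adjusted p = 0.0764) missed the threshold. Without IgG replicate 2 both passed, at 1.42 (adjusted p = 0.00345) and -1.43 (adjusted p = 0.0043).

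Junb, whose protein often restrains Jun and takes part in T cell and skin biology, was at 85.5, 87.4 and 109 FPKM in Control, at 173, 106 and 174 in IgG and at 55.5, 60.3 and 81.2 in anti-A9. All anti-A9 samples lay below all samples of both other groups, and IgG replicate 2 lay among the Control samples. The log2 fold change between anti-A9 and IgG was -1.18 (SE 0.23, adjusted p = 0.0147) and that between IgG and Control 0.66 (SE 0.23, adjusted p = 0.102). The first missed the threshold without anti-A9 replicate 1 (adjusted p = 0.0585) or replicate 2 (adjusted p = 0.0603), and the second passed it without IgG replicate 2 (0.89, adjusted p = 0.0259). With the correction for GC content and transcript length described further on, the first went to -0.50 (adjusted p = 0.174). Jund, the Jun gene that is expressed most evenly across tissues and conditions, was at 114, 172 and 241 FPKM in Control, at 127, 152 and 171 in IgG and at 132, 104 and 109 in anti-A9. Its Control samples were the most spread and overlapped with both other groups, anti-A9 replicates 2 and 3 were the lowest of all 9, and neither the log2 fold change of -0.17 between IgG and Control nor that of -0.38 between anti-A9 and IgG (SE 0.26 each, adjusted p = 0.695 and 0.302) passed the threshold.

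Atf3 encodes a stress-induced partner of Jun proteins that can repress its targets. It was at 5.87, 20.8 and 14.6 FPKM in Control, at 29.2, 20.9 and 20.0 in IgG and at 17.5, 20.6 and 17.2 in anti-A9, with IgG replicate 1 highest and Control replicate 1 lowest. IgG and Control differed by 0.92 on the log2 scale (SE 0.40, adjusted p = 0.161). Egr1, a zinc finger factor with its own GC-rich sites, was at 2.80, 6.81 and 4.14 FPKM in Control, at 14.7, 5.36 and 10.97 in IgG and at 5.45, 5.45 and 8.83 in anti-A9. As for Jun and Junb, IgG replicates 1 and 3 were the highest of all samples and IgG replicate 2 was not. The log2 fold change between IgG and Control was 1.13 (SE 0.43, adjusted p = 0.118), or 1.54 without IgG replicate 2 (adjusted p = 0.0346), and that between anti-A9 and IgG was -0.57 (adjusted p = 0.343).

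Ier2 (chr8:84661331-84662852, minus strand, 1 exon) encodes a short-lived nuclear protein of the immediate early response. It was at 69.1, 83.0 and 123 FPKM in Control, at 78.4, 80.6 and 121 in IgG and at 54.1, 52.8 and 59.1 in anti-A9. The anti-A9 samples lay below all other samples, and Control and IgG covered the same range. The log2 fold change was -0.73 between anti-A9 and IgG (SE 0.24, adjusted p = 0.0597) and 0.04 between IgG and Control (95% confidence interval -0.50 to 0.58). The difference between anti-A9 and IgG passed the threshold without Control replicate 3 (adjusted p = 0.0263) and when only both of these groups were fitted (adjusted p = 0.0416). The same held with the replicate number as a block (adjusted p = 0.0256). With a correction for GC content and transcript length, described further on, the difference went to -0.04 (adjusted p = 0.865).

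In counts, 1 of the 10 genes was higher in IgG than in Control with an adjusted p under 0.05, where 8.18% of all 15278 genes were, and 0 were lower, where 3.01% were. With an unadjusted p under 0.05, 5 genes (Fosl1, Jun, Junb, Atf3 and Egr1) were higher, against 19.4% of all genes, and 0 were lower, against 10.1%. By the study's rule, which asks for an unadjusted p under 0.05 together with a change of over 2-fold, 2 were higher (Fosl1 and Egr1, against 8.43%) and 0 lower (against 5.19%). Between anti-A9 and IgG, 2 of the 10 were lower (Fosl1 and Junb), where 14.4% of all genes were, and 0 were higher, where 6.72% were. By an unadjusted p under 0.05 these were 4 (with Jun and Ier2, against 24.2%) and 0 (against 14.9%), and by the study's rule 2 (Fosl1 and Junb, against 8.38%) and 0 (against 7.64%). Groups did not overlap for 1 gene between IgG and Control (Fosl1, higher, against 20.7% of all genes) and for 0 lower genes (against 10.2%). Between anti-A9 and IgG they did not overlap for 3 lower genes (Fosl1, Junb and Ier2, against 28.5%) and 1 higher gene (Fosl2, against 18.5%). The shares of the 10 genes past the adjusted threshold were thus near those over all genes. The median log2 fold change of the 10 was 0.79 between IgG and Control and -0.47 between anti-A9 and IgG, beside 0.09 and -0.06 over all genes. The IgG samples enter both comparisons.

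**Figure D2:**
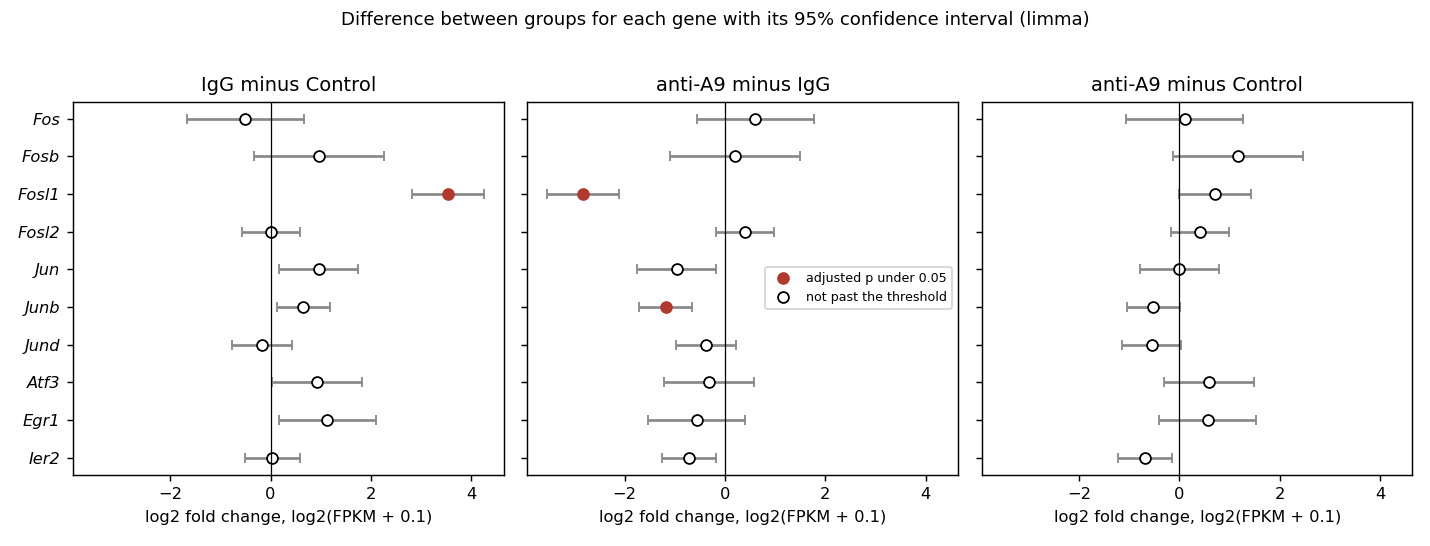
Log2 fold change with its 95% confidence interval (horizontal axis, log2(FPKM + 0.1) scale) for each gene in the 3 comparisons, filled where the adjusted p from limma was under 0.05. Fosl1 stands at 3.54 and -2.84 in the comparisons with IgG, Junb at -1.18 in anti-A9 minus IgG, and all other points are open.

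Between anti-A9 and Control, 0 of the 10 genes had an adjusted p under 0.05 from limma, where 0.00655% of all genes were higher and the same share lower. With an unadjusted p under 0.05, 0 were higher, against 8.87% of all genes, and 1 was lower (Ier2, against 7.1%). The study's rule took 0 of the 10 in either direction, against 2.28% of all genes higher and 0.864% lower. On the log2 scale Ier2 was at -0.69 (adjusted p = 0.301), Junb at -0.53 (adjusted p = 0.315) and Jund at -0.55 (adjusted p = 0.329). Fosl1 was listed above Control in all 3 anti-A9 samples, by a log2 fold change of 0.70 with a 95% confidence interval of -0.01 to 1.42 (adjusted p = 0.317). Its levels in both groups lie near the pseudocount of 0.1 FPKM. Over the alternatives tried this log2 fold change ran from 0.13 to 1.36. Groups did not overlap for Fosl1 (higher, against 17.3% of all genes) and for Junb and Ier2 (lower, against 13.7%).

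The libraries differed in how a gene's level depended on the GC content and the length of its transcript, and several of the 10 genes moved with these dependences. Per 10 points of GC content, the log2 level relative to the mean of all samples changed by -0.15, -0.01 and 0.26 in Control replicates 1 to 3, by 0.09, 0.08 and 0.27 in IgG and by -0.14, -0.19 and -0.20 in anti-A9. All 3 anti-A9 libraries thus had a negative slope and all 3 IgG libraries a positive one, so slope and group cannot be told apart between anti-A9 and IgG. Transcripts of all 10 genes are above the median GC content of all genes (50.4%), from Fos (51.9%), Atf3 (52.2%) and Fosl2 (53.1%) to Ier2 (60.9%), Junb (62.6%) and Jund (67.1%), with Fosl1 at 58.5%. Over the 9 samples, which share these libraries, the correlation of the level with the slope on GC content was 0.95 for Ier2, 0.84 for Jund, 0.79 for Junb, 0.57 for Fosl1 and -0.89 for Fosl2. With the slope on transcript length it was -0.89, -0.76, -0.59, -0.15 and 0.87 in the same order. Per doubling of length, the log2 level changed by -0.03, 0.01 and -0.21 in Control replicates 1 to 3. These length slopes were 0.03, -0.05 and -0.09 in IgG and 0.18, 0.08 and 0.08 in anti-A9. Which of both slopes a gene followed was not tested. Removing the part of each sample's deviations that GC content and transcript length fitted over all genes, a correction chosen after seeing the data, left Fosl1 at 3.24 between IgG and Control (adjusted p = 0.000749) and at -2.28 between anti-A9 and IgG (adjusted p = 0.00452). Junb between anti-A9 and IgG went to -0.50 (adjusted p = 0.174), and Ier2, as given above, lost nearly all of its difference. Jund was then lower in IgG than in Control, at -0.75 (adjusted p = 0.00863), and higher in anti-A9 than in IgG, at 0.44 (adjusted p = 0.0481). Over all genes the correction moved the shares called higher and lower from 8.18% and 3.01% to 7.35% and 6.79% between IgG and Control, and from 6.72% and 14.4% to 6.1% and 8.25% between anti-A9 and IgG. Quantile normalization gave 6.2% and 4.13%, and 9.09% and 11.2%.

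**Figure D3:**
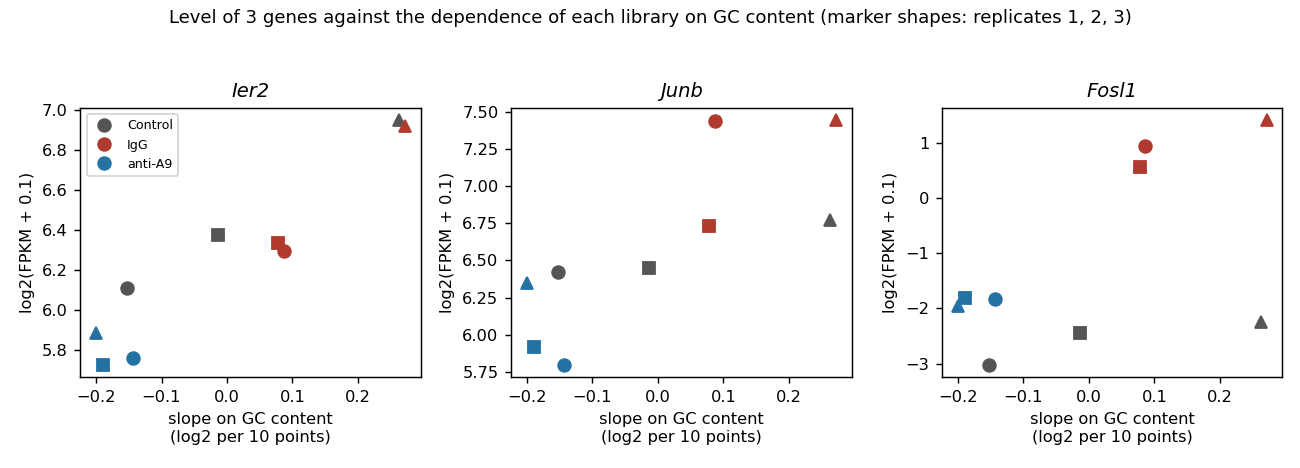
Level of Ier2, Junb and Fosl1 (vertical axes, log2(FPKM + 0.1), not from 0) against the slope of each library on GC content (horizontal axis, log2 per 10 points), 1 marker per sample, with marker shapes for replicates. Levels of Ier2 rise with the slope across all groups (r = 0.95). For Fosl1 (r = 0.57) the IgG samples stand above all others. No anti-A9 library has a slope in the range of the IgG libraries.

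Within the Fos family, Fos and Fosl2 supplied most of the transcript in every sample. Fosl1 made up 0.0729% ± 0.0593 (SD, n = 3) of the family's summed FPKM in Control, 2.17% ± 0.25 in IgG and 0.154% ± 0.0708 in anti-A9. The IgG samples did not overlap with either other group, and in the two-sided exact permutation test both differences had p = 0.1, the smallest value possible with 3 mice a group (adjusted by Benjamini-Hochberg over 21 tests, 0.42). The summed FPKM of the family was 108 ± 41.2 in Control, 87.5 ± 20.2 in IgG and 127 ± 44.4 in anti-A9 (SD, n = 3 each), so its spread within groups covered the differences between them. The Jun family was more abundant, with 312 ± 76.9, 392 ± 79.3 and 223 ± 17.8 FPKM in the same order. Junb made up 30.7% ± 4.58 of it in Control, 38.2% ± 2.64 in IgG and 29.5% ± 5.72 in anti-A9 (SD, n = 3 each), and the last pair did not overlap (exact permutation p = 0.1, adjusted 0.42). Jund made up 55.2% ± 6.80, 39.5% ± 10.5 and 51.5% ± 4.65, with overlap between groups.

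**Figure D4:**
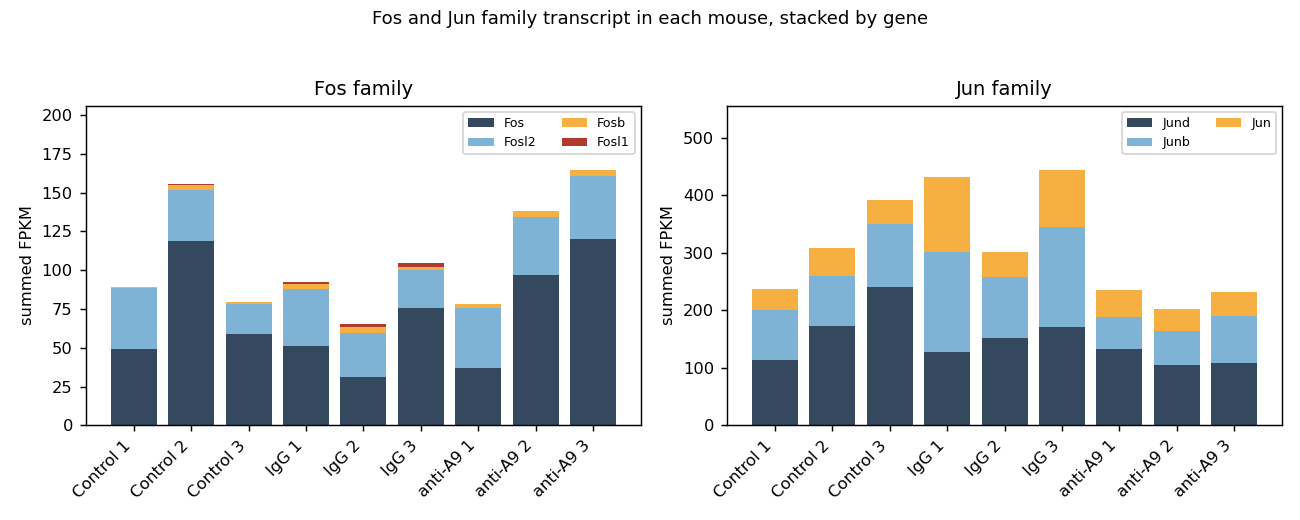
Summed FPKM (vertical axes from 0) of the Fos family and the Jun family in each of the 9 mice, stacked by gene. The Fosl1 layer is thin in every bar, 2.17% of the Fos family on average in IgG, and the Jun family bars of the anti-A9 mice average 223 FPKM.

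By mean FPKM, Jund ranked first of the 10 in Control, followed by Junb, Ier2, Fos, Jun, Fosl2, Atf3, Egr1, Fosb and Fosl1. In IgG Junb ranked first (151 ± 39.1 FPKM) and Jund next (150 ± 22.1 FPKM, SD, n = 3 each), which do not differ beyond their spread. In anti-A9 Jund was first (115 ± 15.1 FPKM) and Fos next (84.7 ± 43.1 FPKM), again within their spread. Fosb and Fosl1 were the lowest pair in all 3 groups, and Fosl1 was below Fosb in every sample except IgG replicate 3 (2.56 against 1.85 FPKM). Within groups, anti-A9 replicate 3 was highest for 6 of the 10 genes. IgG replicate 3 was highest for 5 and replicate 1 for 4, and Control replicate 2 for 5 and replicate 3 for 4. With 3 samples a group, some of the 10 genes must share their highest sample. The same counts were not taken over all genes, so these are descriptions only.

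Among 13 other genes of the AP-1 leucine zipper superfamily, Maff and Mafg passed the threshold in both comparisons with IgG. They encode small Maf proteins, which lack a transactivation domain. Maff was at 6.21 ± 0.551 FPKM in Control, 21.5 ± 2.98 in IgG and 11.5 ± 0.881 in anti-A9 (SD, n = 3 each), with log2 fold changes of 1.77 and -0.90 (adjusted p = 0.000576 and 0.00937). Mafg was at 12.3 ± 0.812, 35.6 ± 21.3 and 12.8 ± 1.62 FPKM (log2 fold changes 1.38 and -1.32, adjusted p = 0.0327 and 0.0278). In all, 2 of 13 rose and 0 fell between Control and IgG, 0 were higher and 2 lower in anti-A9 than in IgG, and the median log2 fold changes of the list were 0.0027 and 0.38. Over all genes 8.18% rose and 3.01% fell in the first comparison, and 6.72% were higher and 14.4% lower in the second, and the counts of all lists stand beside these shares. The call of Mafg between IgG and Control was lost without any 1 of the Control or anti-A9 samples, of which the latter do not enter its fold change, and also under quantile normalization and when only both groups were fitted. In anti-A9 against IgG, Maff was the only gene of the list left past the threshold without anti-A9 replicate 1, 2 or 3, and it missed the threshold after the GC and length correction.

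Of the other immediate early genes, 26 of 27 passed the filter, and 7 rose and 0 fell between Control and IgG (median log2 fold change 0.56). Ier3, a gene for a stress-induced regulator of survival, had the largest rise, 13.0 ± 1.20 FPKM in Control and 88.7 ± 29.1 FPKM in IgG (SD, n = 3 each), with a log2 fold change of 2.70 (SE 0.29, adjusted p = 0.00145). Ier5l followed with 1.98 (adjusted p = 0.005), then the orphan nuclear receptor gene Nr4a1 with 1.75 (adjusted p = 0.0124) and Cyr61, which encodes a matrix-associated growth signal, with 1.60 (adjusted p = 0.0151). The remaining 3 were Myc, Nr4a2 and Sik1, of which Sik1 lost its call under 15 of 20 alternatives and Nr4a2 under 3. Like Fosl1, Nr4a1 and Myc are on the study's own pathway lists chosen from these samples for their pattern, so their direction is not independent evidence. Between anti-A9 and IgG, 7 were lower and 1 was higher (median -0.21). Ier3 was at 15.03 ± 4.19 FPKM in anti-A9 (log2 fold change -2.53, adjusted p = 0.00312), and Ier5l, Nr4a2 and Cyr61 had log2 fold changes of -1.78, -1.34 and -1.30 (adjusted p = 0.00852, 0.0232 and 0.0234). The higher one, named here after its values were seen, was Klf6, a zinc finger factor gene, at 57.6 ± 3.12 against 30.4 ± 5.07 FPKM (log2 fold change 0.93, adjusted p = 0.0172). The count of this list in anti-A9 against IgG went from 8 to 2 without anti-A9 replicate 2, and to 4 without anti-A9 replicate 1 or 3. Without IgG replicate 1 it was 5, and the count of IgG against Control went from 7 to 4 when only both groups were fitted.

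The kinases and factors upstream, 24 genes of the MAP kinase cascade and of the serum response factor complex, held 3 that rose and 1 that fell between Control and IgG (median log2 fold change -0.01), shares near the 8.18% and 3.01% of all genes. Elk3, a partner of serum response factor, rose by 0.80 on the log2 scale (adjusted p = 0.0441), the JNK kinase gene Map2k4 by 0.66 (adjusted p = 0.0422) and the p38 target kinase gene Mapkapk2 by 0.47 (adjusted p = 0.0405). The p38 kinase gene Map2k6 fell, from 6.11 ± 0.370 to 3.08 ± 1.00 FPKM (log2 fold change -1.01, adjusted p = 0.0313), and was higher in anti-A9, at 6.86 ± 1.21 FPKM (1.16 against IgG, adjusted p = 0.017). In anti-A9 against IgG, 1 of the 24 was higher (Map2k6), where 6.72% of all genes were. In the same comparison 1 was lower (Mapkapk2), where 14.4% of all genes were. The calls between Control and IgG were close to the threshold: their count was 0 to 2 with single samples left out, and 0 when only both groups were fitted. Of 14 genes for feedback inhibitors of the cascade, 6 were higher in IgG than in Control at an unadjusted p under 0.05 from limma, against 19.4% of all genes. At that threshold 0 were lower, against 10.1%. The median log2 fold change of the list was 0.49, beside 0.09 over all genes. Past the adjusted threshold 1 rose and 0 fell, beside 8.18% and 3.01% of all genes. The riser was Dusp4, a nuclear phosphatase of MAP kinases, at 1.79 ± 0.862 FPKM in Control, 19.0 ± 10.1 in IgG and 4.82 ± 1.41 in anti-A9 (SD, n = 3 each), with log2 fold changes of 3.32 (adjusted p = 0.0031) and -1.88 (adjusted p = 0.0219). The second of these was lost after the GC and length correction and without anti-A9 replicate 1, 2 or 3 or IgG replicate 1.

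Known AP-1 target genes had the largest median changes of these lists in both comparisons with IgG. Of 14, 7 rose and 0 fell between Control and IgG, 6 were lower and 0 higher in anti-A9 than in IgG, and the median log2 fold changes were 1.74 and -1.03. The matrix protease gene Mmp10 was at 0.253 ± 0.0527 FPKM in Control, 35.6 ± 27.4 in IgG and 1.03 ± 0.731 in anti-A9 (SD, n = 3 each), with log2 fold changes of 6.29 and -4.81 (adjusted p = 0.00145 and 0.00575). The cytokine gene Il11 was at 0.118 ± 0.0445, 6.08 ± 3.96 and 0.501 ± 0.355 FPKM (4.57, adjusted p = 0.00334, and -3.26, adjusted p = 0.0131), and the cytokine gene Lif had log2 fold changes of 1.77 and -1.67 (adjusted p = 0.00419 and 0.00665). The collagenase gene Mmp13 had 2.74 and -2.63 (adjusted p = 0.0488 and 0.0392), with 13.6 ± 16.7 FPKM in IgG. Its first call was lost under 15 of 20 alternatives, among them a pseudocount of 1 FPKM, both other filters and the GC and length correction, and its second under 9 of 20. The count of anti-A9 against IgG was 2 without anti-A9 replicate 2 and 3 without anti-A9 replicate 1 or 3, or when only both groups were fitted. With the GC and length correction it was 4. This list was chosen with earlier results of these data known. Il11 and Lif are also on the study's own pathway lists, chosen from these samples for a rise with AOM/DSS and a fall with anti-A9. Their direction is therefore not independent evidence.

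**Figure D5:**
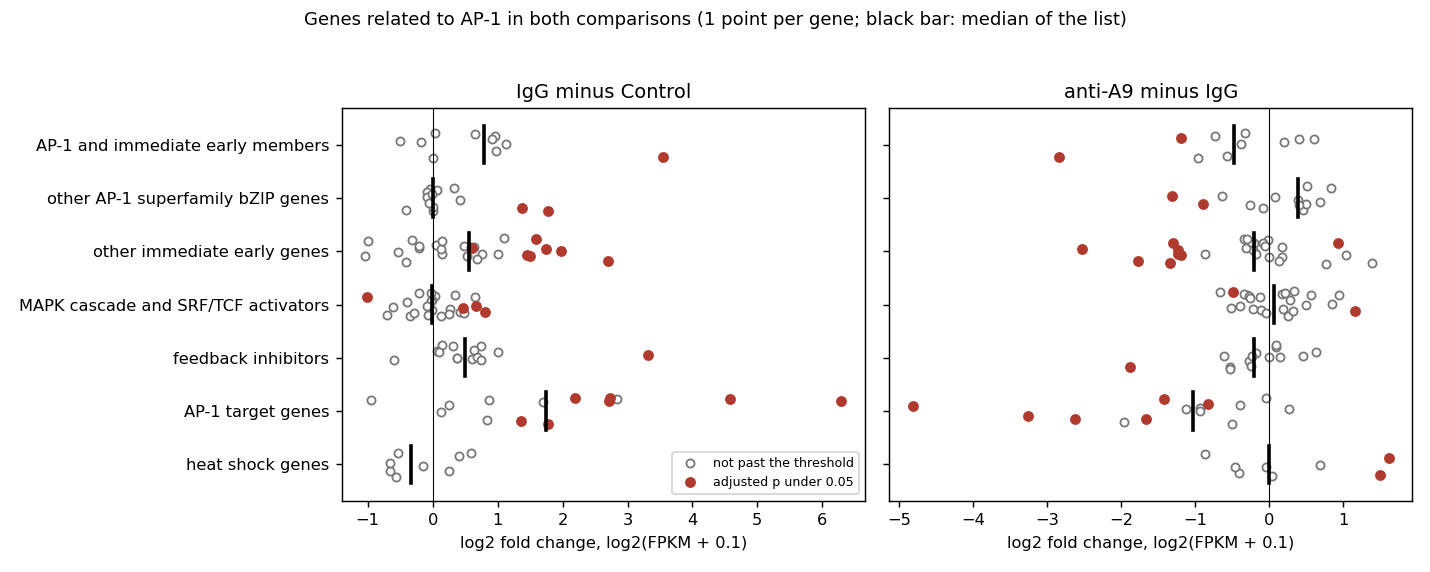
Log2 fold change (horizontal axes, log2(FPKM + 0.1) scale) of every tested gene of the 10 and of 6 related lists, IgG minus Control on the left and anti-A9 minus IgG on the right, filled where the adjusted p was under 0.05, with a bar at each list's median. The target genes have medians of 1.74 and -1.03, whereas those of the upstream genes are -0.01 and 0.07.

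Heat shock genes, a readout of cell stress, did not pass the threshold between Control and IgG (0 of 8 from limma, with 1 lower at an unadjusted p under 0.05). Hspa1a and Hspa1b, near-identical copies between which fragments can be split in different ways, were higher in anti-A9 than in IgG. Hspa1a was at 8.51 ± 2.14 FPKM in Control, 5.44 ± 1.79 in IgG and 16.4 ± 3.17 in anti-A9 (SD, n = 3 each; log2 fold change 1.61, adjusted p = 0.0123). Hspa1b was at 17.1 ± 1.98, 11.1 ± 3.29 and 30.5 ± 4.0 FPKM (log2 fold change 1.49, adjusted p = 0.00704). Of the other 6, Bag3 and Hspa8 had log2 fold changes of -0.41 and -0.47 and were 2 lower genes at an unadjusted p under 0.05, and the median of the list was -0.0048. Between anti-A9 and Control, 0 genes of the 6 related lists passed the adjusted threshold. At an unadjusted p under 0.05, 4 of 13 other leucine zipper genes, 2 of 26 immediate early genes, 3 of 24 upstream genes, 4 of 14 feedback inhibitors, 0 of 14 target genes and 2 of 8 heat shock genes were higher, where 8.87% of all genes were. By the same threshold 1 of the 24 upstream genes and 1 of the 8 heat shock genes were lower, where 7.1% of all genes were.

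Markers of other cell types moved in the same comparisons, and their part in the levels of Fosl1 and of the lists was not tested. Of 8 neutrophil markers, 5 were higher in IgG than in Control and 5 lower in anti-A9 than in IgG, with summed levels of 92.8 to 122 FPKM in Control, 135 to 690 in IgG and 102 to 180 in anti-A9. Most of the Control and anti-A9 sums came from 1 marker, Ly6g, which was at 104 ± 14.4 FPKM in Control, 72.4 ± 40.1 in IgG and 124 ± 36.4 in anti-A9 (SD, n = 3 each) and passed the threshold in neither comparison. Of 7 fibroblast markers, 5 were higher and then 3 lower, with 420 to 505, 627 to 2105 and 565 to 743 FPKM. Of 10 squamous epithelium markers, which colon epithelium does not normally express, 8 were tested, and 5 were higher in IgG and 6 then lower. They summed to 3.09 to 4.77 FPKM in Control, 11.6 to 53.5 in IgG and 2.92 to 4.87 in anti-A9, with Krt6a and Dsg3 at 0 in every Control sample. Macrophage markers (8 genes) passed the threshold of limma in neither comparison (0 and 1 at an unadjusted p under 0.05), with 481 to 762, 388 to 782 and 494 to 679 FPKM. With single samples left out, the calls of the neutrophil list numbered 4 to 5 and 2 to 5 in the comparisons with IgG, those of the fibroblast list 0 to 4 and 0 to 3, and those of the squamous list 2 to 5 and 1 to 6. Lymphocyte and smooth muscle markers had medians of the opposite sign. The 7 lymphocyte markers had median log2 fold changes of -1.35 between IgG and Control and 2.23 between anti-A9 and IgG, with 1 call, Cd4 in the second (2.26, adjusted p = 0.0157), and the 6 smooth muscle markers had -1.04 and 1.42, also with 1 call, Myh11 in the second (2.01, adjusted p = 0.0331). With single samples left out these lists had 0 to 5 and 0 to 6 calls in the second comparison. Adipocyte markers were lower in IgG than in Control for all 4 tested, or for 0 to 4 with single samples left out, 2 with a pseudocount of 1 FPKM and 0 when only both groups were fitted, with 35.3 to 156 FPKM in Control, 0.0539 to 13.9 in IgG and 0.0944 to 1.22 in anti-A9. IgG replicate 2, which had the lowest Fos, Fosl1, Jun, Junb and Egr1 of its group, had the highest fibroblast, lymphocyte and adipocyte sums of its group and the lowest squamous sum.

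Over the 9 samples the genes fell into sets with like levels. On the log2 scale Jun was most like Egr1 (r = 0.83), Junb (0.80) and Fosl1 (0.79), Atf3 was most like Fosb (0.83), and Jund was like Ier2 (0.86) and opposed to Fosl2 (-0.91). Samples of 3 groups enter these values, which are descriptions only. With group means removed, Jun and Egr1 (0.80), Atf3 and Fosb (0.80), and Jund and Ier2 (0.83) still varied together, and so did Fosl1 and Ier2 (0.83). Jund and Fosl2 stayed opposed (-0.89), whereas Jun with Junb went down to 0.67 and Jun with Fosl1 to 0.54. Levels of Ier2, Jund and Fosl2 also went with the libraries' slope on GC content (r = 0.95, 0.84 and -0.89) and on transcript length (r = -0.89, -0.76 and 0.87). The slope on GC content varied within groups too, from -0.15 to 0.26 in Control. No correlation here or below was corrected for GC content or transcript length, and the part of the slopes in them was not tested. Among all tested genes with a mean of at least 1 FPKM, those most like Fosl1 over the 9 samples included Cxcl2 (r = 0.99) and Tnfrsf12a, those most like Jun were Bean1 (0.99), Zfp629 and Cd81, and those most like Junb were Flywch2 (0.99), Stx18 and Sdhaf4. Ier2 was most like Chmp2a (0.98), Atp9a and Timm44, Jund like Sap30l (0.95), Stx4a and Inafm1, and Fosl2 like Zfyve16 (0.996), Zfp445 and Baz2b. Egr1 was most like Zscan12 (0.92), Syngr1 and Pitpnb, Atf3 like Tpd52l2 (0.96), Gm27029 and Arl16, Fos like Fam76a (0.89), Setd3 and Tarsl2, and Fosb like Amotl2 (0.89) and Egln1. Tnfrsf12a, a receptor gene of injured tissue, was at 13.1 FPKM in Control, 88.3 in IgG and 16.6 in anti-A9, and Cxcl2, a neutrophil chemokine gene, was listed at 0 in Control and at 4.71 and 0.16 FPKM in the other groups. Both genes are, like Fosl1, on the study's own pathway lists chosen from these samples for this pattern.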

How the data were processed

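Colon RNA of 9 mice, 3 per group, was sequenced by the authors, whose deposited files hold 1 FPKM value per gene symbol and sample (21544 entries, of which 46 repeat a symbol and were summed). The unit FPKM was read from the deposited values and from the submitters' processing notes, which name TopHat, Cufflinks, HTSeq, DESeq and the build GRCm38. The authors tested genes with DESeq, which needs counts, and this test was not repeated. The role and order of the other tools are not given in the sources used here. Sequencing depth is unknown, so precision comes from the spread between the 3 mice of a group. Low values differ in steps between samples, and 1 fragment was worth between 0.787 and 1.064 times its value in IgG replicate 1. Gapdh, Ppia and Rps18 reached at most 0.755, 0.974 and 0.391 FPKM, so a gene at 0 is only listed at 0.

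The values were not scaled further. Genes that reached 0.1 FPKM in 3 or more samples (15278) were taken to log2 after adding 0.1 FPKM, and limma 3.58.1 (R 4.3.3) compared the groups in 1 fit of all 9 samples with an intensity trend (8.87 degrees of freedom). P-values were adjusted by Benjamini-Hochberg over all genes tested. In a test on simulated data, 179 of 200 genes that were raised or lowered by 3 on the log2 scale between IgG and Control were recovered among 15278 genes, and 6 unchanged genes passed. The simulated noise was independent between genes. Smaller changes, and slopes of a library on GC content and length, were not simulated, so the test says nothing about them. Family shares were compared with two-sided exact permutation tests. Positions, transcript lengths and GC contents (97.7% of tested genes) are from GENCODE M21 and promoters from RefSeq.

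The 10 genes and the related lists were chosen with earlier results of these data known. Named genes are the 10, the up to 4 largest changes past the adjusted threshold in each list and comparison with IgG, S100a9, and the 3 genes most alike to each of the 10. Some genes that this rule names are not reported here. Alternatives covered the pseudocount, the filter, the scaling, the samples in the fit, the replicate block, the intensity trend, the threshold and single samples left out. The GC and length correction and the counts of lists under the alternatives were added after seeing the data. Tables and figures were made with Python 3.11.15, pandas 2.3.3, numpy 2.4.6, scipy 1.17.1 and matplotlib 3.10.9.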

Additional observations from a re-analysis of the deposited data

How the results depend on the processing

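Fosl1 kept its direction and its call in both comparisons with IgG under all 20 alternatives. The number of the 10 genes called between IgG and Control went from 1 to 2 by the study's rule and to 2 after the GC and length correction, with or without the replicate block (Fosl1 higher, Jund lower), and ran from 1 to 4 with single samples left out, the 4 (Egr1, Fosl1, Jun and Junb) without IgG replicate 2. Between anti-A9 and IgG it went from 2 to 1 after the correction with the replicate block, and ran from 1 to 3 with single samples left out. The labels number replicates alike in each group, but samples with the same number deviated together with correlations of only -0.187 to 0.249, so the numbers were not taken as pairs. With the replicate block alone, Ier2 between anti-A9 and IgG passed the threshold at -0.73 (adjusted p = 0.0256) and no other call of the 10 changed.

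Of the fold changes of the 10 genes that changed direction, 1 passed the threshold afterwards, that of Jund between anti-A9 and IgG. Between IgG and Control, Fosl2 went to -0.10 under median-of-ratios scaling, -0.092 under quantile normalization and -0.13 after the GC and length correction, with or without the block, and ran from -0.29 to 0.22 with single samples left out. Ier2 went to -0.070 under median-of-ratios scaling and -0.34 after the correction, with or without the block, and ran from -0.16 to 0.27 with single samples left out, and Jund from -0.45 to 0.088. Between anti-A9 and IgG, Jund went from -0.38 to 0.44 after the correction, with or without the block (adjusted p = 0.0481 without it and 0.0574 with it), and Fosb ran from -0.11 to 0.46 with single samples left out. Between anti-A9 and Control, Jun went to 0.10 under quantile normalization and 0.063 after the correction, with or without the block. With single samples left out, Jun ran from -0.086 to 0.10 and Fos from -0.23 to 0.62. The causes were not tested. Of 600 fold changes of the 10 genes under alternatives, 26 changed direction, 10 gained and 4 lost a call. Depth is unknown, and with 3 mice a group the exact tests could not go below 0.1.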
